A study of Mus musculus with 2 samples.

Results

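The IL-6 cytokine family was examined in cultured pericytes, mural cells that enclose capillaries and other small vessels, under normal and high glucose. The members were 10 mouse genes of the family, chosen by name as ligands (Il11, Il6, Lif, Clcf1, Ctf1), receptor chains (Il6st, Il11ra1, Lifr, Osmr) and a feedback inhibitor (Socs3), and found on the array through the RefSeq accessions of their probes. All 10 had a probe, 12 probes in all, out of 20883 named genes and 55663 probes. The set was proposed with the ratio between the arrays already known, so the values of its members are a description and no test was made on them.

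The cells were primary pericytes of penile cavernous tissue from C57BL/6 mice, grown in serum-containing DMEM with human PEDF in both groups. The labels give 72 h of exposure to glucose at 5 mmol (normal) or 30 mmol (high), with no volume stated. RNA from 3 samples per condition was mixed, and each mixture was hybridised to 1 Agilent 1-colour array. The labels do not say whether the pooled samples came from separate animals or cultures, and an osmotic control was not analysed here. With 1 array per condition there is no replicate spread between pools, no p-value is given, and every difference is between these 2 pools.

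Cytokines of this family act through gp130, the signalling receptor chain encoded by Il6st, together with a ligand-specific chain. Receptor engagement activates JAK kinases and the transcription factor STAT3, and STAT3 induces Socs3, whose product binds gp130 and its kinases and shuts the signal down. In connective tissue and mural cells IL-11 is known as an inducible cytokine linked to matrix production, and IL-6 and LIF as secreted signals of stressed stromal cells.

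In high glucose the signal of Il11 was 2.46-fold higher, and that of Socs3 1.52-fold higher, while 8 of the 10 members differed by less than 1.2-fold. No member was lower by 1.5-fold. Signals are processed intensities of 1 spot, or means over repeat spots, and ratios are of high over normal glucose after each array was set to its own 75th percentile, on the log2 scale. All 12 probes were well above background on both arrays by the flag of the scanner software. At 2-fold in either direction 1 of 10 members was counted, against 0.903% of 14176 named genes measured on both arrays, or 0.487% higher and 0.416% lower. At 1.5-fold 2 of 10 were counted, against 2.78% of the measured genes. The count of members at 1.5-fold was added after the values were seen, and Socs3 passes that line narrowly. Since that contrast chose the set, nothing is read from these counts. The median log2 ratio was 0.0033 over the 10 members and -0.0069 over all measured genes.

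**Figure D1:**
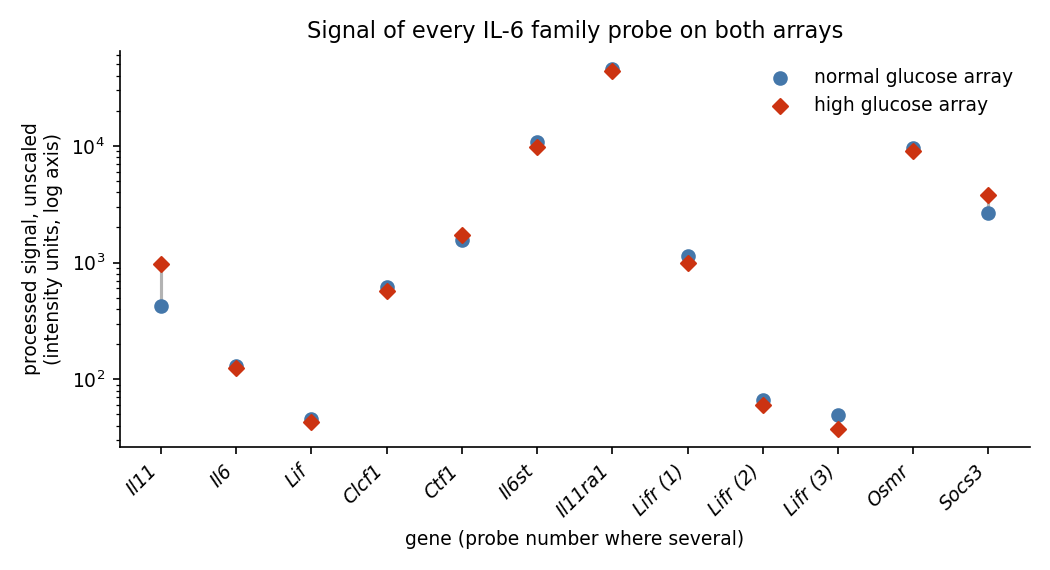
Processed signal (unscaled intensity units, log axis) of each IL-6 family probe, circles for the normal glucose array and diamonds for the high glucose array, 1 array each. The pair for Il11 is the widest apart, 421 against 980, and Socs3 follows with 2660 against 3824; heights of different probes are not comparable.

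Among the ligands, Il11 stood out. IL-11 is a secreted cytokine that binds its own receptor chain, the product of Il11ra1, before gp130. Its single probe read 421 on the normal glucose array and 980 on the high glucose array. The error that the scanner software assigns to such a spot was 42.5 and 98.1, which propagates to 0.205 on the log2 scale. The signals lay further apart than these errors. The log2 ratio was 1.30, or a 2.33-fold difference before scaling. Median pixels less local background gave 1.21.

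How much repeat spots of 1 probe vary on these arrays bears on that value. Signal bands were set by the mean of both arrays, which placed Il11 at 512 to 4096. Over 101 probes of that band with at least 5 spots, the median SD of the log2 ratio within a probe was 0.044. The normal glucose signal of Il11, 421, lies in the band of 128 to 512, where that median was 0.093. Either spread holds spot noise only, and neither the difference between pools nor the behaviour of a single probe. Among 4875 genes with a mean signal of 512 to 4096, Il11 ranked 6 from the top by log2 ratio. Il11 enters that band only through its high glucose signal, so this rank is a description. Of these 4875 genes 0.164% were at least 2-fold higher in high glucose. Over all 14176 measured genes the rank of Il11 was 34. Relative to all dim spots, the 11 dim spots within 2 rows and columns of it were brighter on the high glucose array by 0.138 on the log2 scale, a median of 5.0 units. The Il11 spot itself differed by 508 units of median pixel signal.

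**Figure D2:**
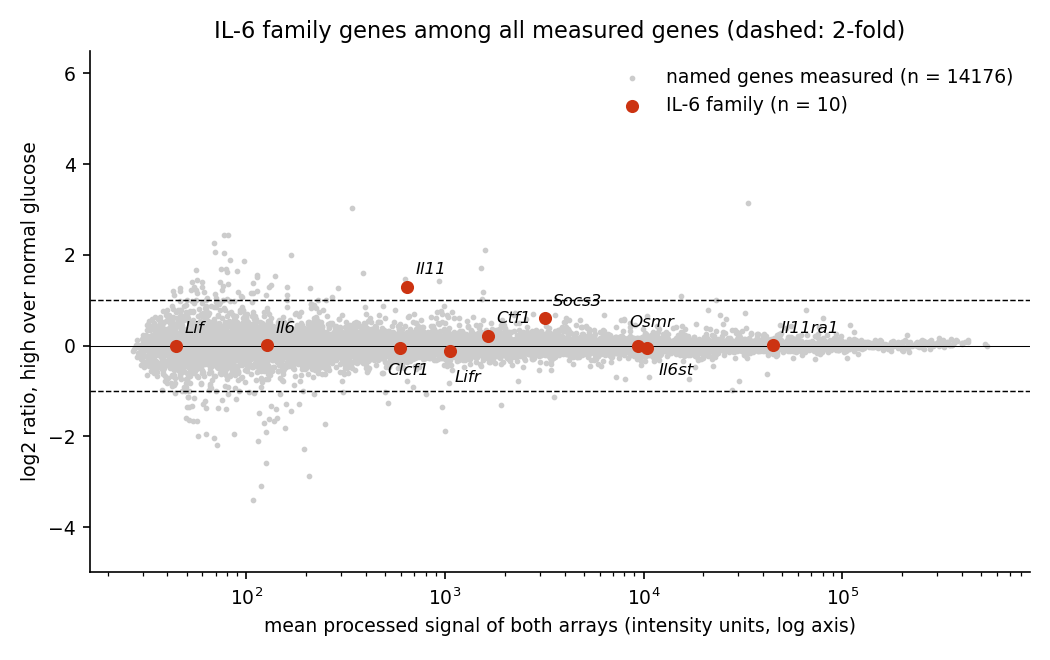
Log2 ratio of high over normal glucose against mean processed signal (log axis), grey for 14176 named genes measured on both arrays and red for the 10 IL-6 family genes, 1 array per condition. Il11 lies above the dashed 2-fold line at 1.30 and Socs3 at 0.60, and the other 8 members lie between -0.11 and 0.22.

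The promoters of both members that read at least 1.5-fold higher are shown because STAT3 and AP-1 are factors known to act on genes of this family. Those of Il6 and Lif, a pair of ligands whose ratio was near 0, are shown for contrast. RefSeq windows were found for 9 of the 10 members, 12 windows in all, and none for Clcf1. Each covers 250 bases before an annotated start, 5′ to 3′, in build GRCm38.p6, with matches to the STAT motif TTCNNNGAA or the AP-1 motif TGANTCA in capitals. Both strands were searched and no matches overlap.
Il11, chr7:4778142-4778391, minus strand: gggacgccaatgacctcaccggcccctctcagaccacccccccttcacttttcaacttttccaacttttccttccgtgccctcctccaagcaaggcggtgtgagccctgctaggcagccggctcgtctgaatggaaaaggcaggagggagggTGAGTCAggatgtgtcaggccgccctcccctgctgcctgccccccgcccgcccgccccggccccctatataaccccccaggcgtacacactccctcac
Socs3, chr11:117969367-117969616, minus strand: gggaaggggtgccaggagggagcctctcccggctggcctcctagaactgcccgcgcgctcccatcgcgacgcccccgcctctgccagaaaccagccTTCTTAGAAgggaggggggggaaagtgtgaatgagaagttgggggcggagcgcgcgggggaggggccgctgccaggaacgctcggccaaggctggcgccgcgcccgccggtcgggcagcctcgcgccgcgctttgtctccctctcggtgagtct
Il6, chr5:30012864-30013113, plus strand: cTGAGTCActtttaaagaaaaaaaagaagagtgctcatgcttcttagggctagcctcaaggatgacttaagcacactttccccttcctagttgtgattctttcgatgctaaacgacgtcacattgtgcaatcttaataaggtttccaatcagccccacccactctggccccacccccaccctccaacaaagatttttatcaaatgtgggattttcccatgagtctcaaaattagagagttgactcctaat
Lif, chr11:4257318-4257567, plus strand: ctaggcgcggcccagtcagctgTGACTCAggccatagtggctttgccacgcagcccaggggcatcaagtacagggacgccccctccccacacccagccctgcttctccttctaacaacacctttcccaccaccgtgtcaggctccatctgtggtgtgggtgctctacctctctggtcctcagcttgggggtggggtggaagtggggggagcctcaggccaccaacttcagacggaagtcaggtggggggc

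The Il11 window held 1 AP-1 match, TGAGTCA, 98 bases before the start, and no STAT match. A further Il11 start, with the window at chr7:4782858-4783107, had neither. The Socs3 window held 1 STAT match, TTCTTAGAA, 154 bases before the start. AP-1 matches also stood in the windows of Il6 and Lif, at 249 and 228 bases. The STAT motif was in 1 and the AP-1 motif in 3 of the 12 member windows, against 7.02% and 6.75% of 32851 mouse windows of the same length. The cyclic AMP response element TGACGTCA was in 0 of the 12 and in 1.55% of all windows. A match is a stretch of letters, and binding was not measured here.

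Of the other ligands, cardiotrophin 1 (Ctf1), a heart and muscle cytokine that signals through LIFR and gp130, had the most spots, since its probe was printed 10 times. One spot with an outlier flag on both arrays was left out, and 9 were used. In normal glucose the 9 spots read 1508 at the lowest, 1577 at the median and 1622 at the highest, and in high glucose 1660, 1718 and 1925. These ranges did not overlap. How many other repeated probes show the same was not counted, so nothing is read from that. The log2 ratio was 0.22 ± 0.06 (SD, n = 9 spots on 1 array per condition), or 1.17-fold higher, and the spots ranged from 0.14 to 0.35. Surroundings are reported for the first of these spots only. Relative to all dim spots, its 5 dim neighbours were brighter in high glucose by 1.584 on the log2 scale, a median of 85.0 units. The first Ctf1 spot itself differed by 124.5 units of median pixel signal. That spot read 1622 and 1720, a log2 ratio of 0.16, which is less than its propagated software error of 0.204. The part of the surroundings in the Ctf1 value was not tested.

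**Figure D3:**
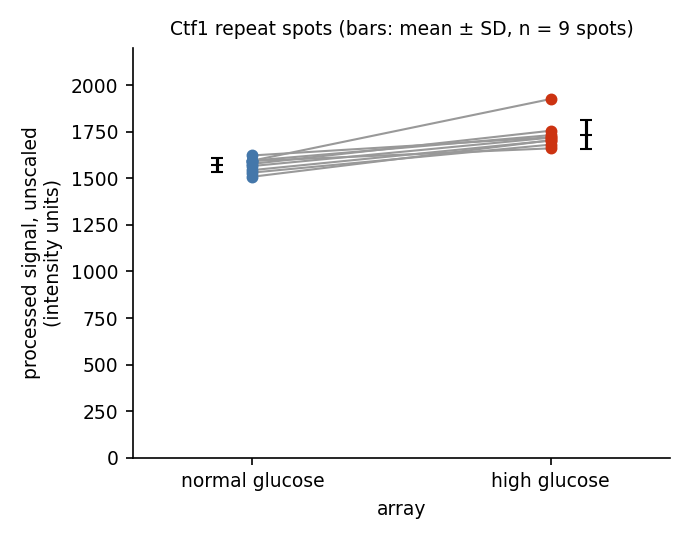
Processed signal (unscaled intensity units) of the 9 repeat spots of the Ctf1 probe on each array, with lines joining a spot position and bars for mean ± SD over spots, which are repeats within 1 array. The normal glucose spots average 1570 ± 36.4 and the high glucose spots 1733 ± 77.1, and each spot is higher in high glucose.

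Il6, the founding cytokine of the family, was dim. Its probe was printed at 2 spots, which read 136 and 125 in normal and 124 and 123 in high glucose. The high glucose spots lay just below the others, by less than the software error of 13.7. The mean log2 ratio was 0.01, with the spots at -0.04 and 0.06. Lif, leukaemia inhibitory factor, was dimmer still, at 45.6 in normal and 43.1 in high glucose, with a log2 ratio of -0.0006. Neither ratio exceeded the median spot SD of 0.19 for signals below 128, and the sign of both changed between settings. Clcf1, cardiotrophin-like cytokine factor 1, read 623 in normal and 566 in high glucose. Its log2 ratio was -0.06, lower in all 11 settings, at a spot SD of 0.044. The propagated software error of 0.205 is more than that ratio. So Il11 was the only 1 of the 5 ligands past 1.2-fold.

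The receptor chains differed little. The shared chain Il6st (gp130) read 10873 in normal and 9854 in high glucose, a log2 ratio of -0.06, and -0.13 from median pixels. It was lower in all 11 settings, between -0.14 and -0.05, by less than the propagated software error of 0.204. Il11ra1, the ligand-binding chain for IL-11, read 45745 and 43549, with a log2 ratio of 0.01 that turned to -0.05 with median centring. Il11ra1 has near-identical copies in the mouse genome, so its probe may also read their transcripts. No probe carried the name Il11ra2. The log2 ratio of Il11ra1 ranged from -0.0518 to 0.0604 over the 11 settings.

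Osmr, the oncostatin M receptor chain, read 9652 in normal and 9105 in high glucose, with a log2 ratio of -0.0038 whose sign changed between settings. Lifr, the chain for LIF and cardiotrophin 1, had 3 probes. The brightest read 1134 in normal and 992 in high glucose, a log2 ratio of -0.11. The other two were dim, with 66.9 against 59.8 and 49.5 against 37.6, at -0.08 and -0.32. All 3 Lifr probes were lower in high glucose, by 1.06- to 1.25-fold. The software's own error was 0.204 on the log2 scale for the brightest, which is more than its ratio.

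The feedback gene Socs3, suppressor of cytokine signalling 3, read 2660 in normal and 3824 in high glucose from 1 probe. The software errors were 266 and 382. Its log2 ratio was 0.60, above the propagated error of 0.204, and median pixels gave 0.59. Among the 4875 genes with a signal of 512 to 4096 it ranked 30, and 0.636% of these genes were at least 1.5-fold higher. Over all measured genes the share at least 1.5-fold higher was 1.59% and its rank 213. It lay close to the 1.5-fold line and read 1.46-fold higher with each array centred on its median. The 12 dim spots around it were brighter on the high glucose array by 0.485 on the log2 scale, a median of 20.0 units, against a difference of 1092 units of median pixel signal at the Socs3 spot.

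**Figure D4:**
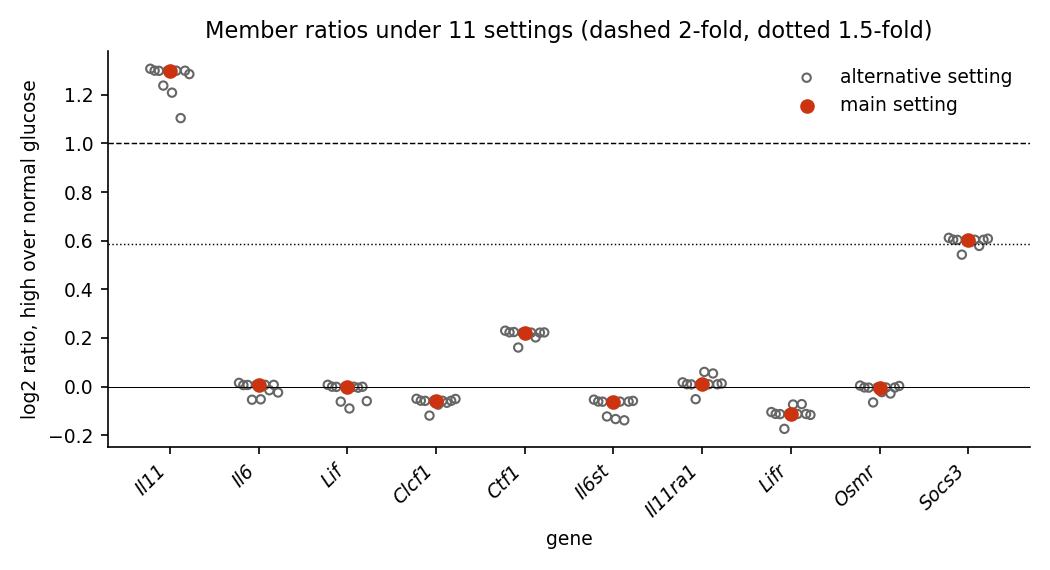
Log2 ratio of high over normal glucose of each IL-6 family gene, filled for the main setting and open for 10 alternatives in scaling, background, detection and probe summary, 1 array per condition. Il11 stays above the dashed 2-fold line in all 11 settings, from 2.15- to 2.47-fold, Socs3 lies on either side of the dotted 1.5-fold line, and Il6, Lif, Il11ra1 and Osmr lie on both sides of 0.

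The rest of the pathway was read from lists of 60 further genes reported here, of which 59 had a named probe and 49 were measured on both arrays. Of these 49, 0 were at least 1.5-fold higher and 1 at least 1.5-fold lower, against 1.59% and 1.19% of all measured genes. Within 1.2-fold lay 43 of 49, and 12431 of 14176 over all measured genes. The median log2 ratio was 0.01.

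Among the other ligands and their partners, 4 of 7 were measured, and Osm (oncostatin M), Il31 and Il12a were not well above background on either array. Ebi3, the soluble partner chain of IL-27, was the 1 of these 49 genes past 1.5-fold and also past 2-fold, with 199 in normal and 67.4 in high glucose, 2.79-fold lower. The 12 dim spots around it were lower too, with a log2 shift of -0.949 and a median shift of -37.8 units, against a difference of -92 units at its own spot. The part of the surroundings in the Ebi3 value was not tested. Ctf2, a paralogue of Ctf1 named after its values were seen, was dim at 31.6 in normal and 43.1 in high glucose, with a log2 ratio of 0.53, and 0.33 from median pixels.

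Of 4 other receptors with a probe, 1 was measured. Il6ra, the ligand-binding chain for IL-6, read 3019 in normal and 3733 in high glucose, a log2 ratio of 0.39, or 1.31-fold higher. Cntfr, a receptor chain through which CLCF1 acts, did not pass the background flag on either array, nor did Il27ra and Il31ra. The sheddases that release soluble receptor chains had lower readings, with Adam10 at -0.15 and Adam17 at -0.06.

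Each of the 6 JAK and STAT genes reported here was measured, and none reached 1.5-fold. The furthest from 0 were Tyk2, a JAK family kinase, at 0.14, and Stat5b at -0.09, whose second probe gave 0.04. Stat3, Jak1 and Socs1 are added by choice after their values were seen. Stat3, the main effector of gp130, had log2 ratios of 0.01 over 10 spots and 0.12 from a second probe. Jak1, the chief kinase of gp130, read 20795 and 19540, a ratio of -0.01. None of the 12 other inhibitors reached 1.5-fold. The 2 furthest from 0 were Cish at -0.18 and Pias3 at 0.17, and Pias3 was dim and turned to -0.11 from median pixels. Socs1, which like Socs3 inhibits JAK kinases directly, was at 0.13. Of 6 measured adaptors that couple gp130 to ERK and PI3K, Yes1 was at 0.28 and Gab1 at -0.23, the latter -0.08 from median pixels.

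STAT3 target genes gave 20 measured of 23, 10 higher and 10 lower, with a median of -0.01. Socs3 was the 1 past 1.5-fold. Other targets of the list were named after their values were seen. Birc5 (survivin), which is also a gene of mitosis, was higher by all 3 probes, at 0.33, 0.23 and 0.28. Ccl2, a monocyte chemokine, was at 0.32 over 10 spots. Bcl3 was at -0.16, Pim1 at -0.23, Junb at -0.18, Myc at -0.03 and Timp1 at -0.10. The acute phase genes Saa3 and Fgg were not well above background on either array, and Hp was so on the high glucose array alone.

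**Figure D5:**
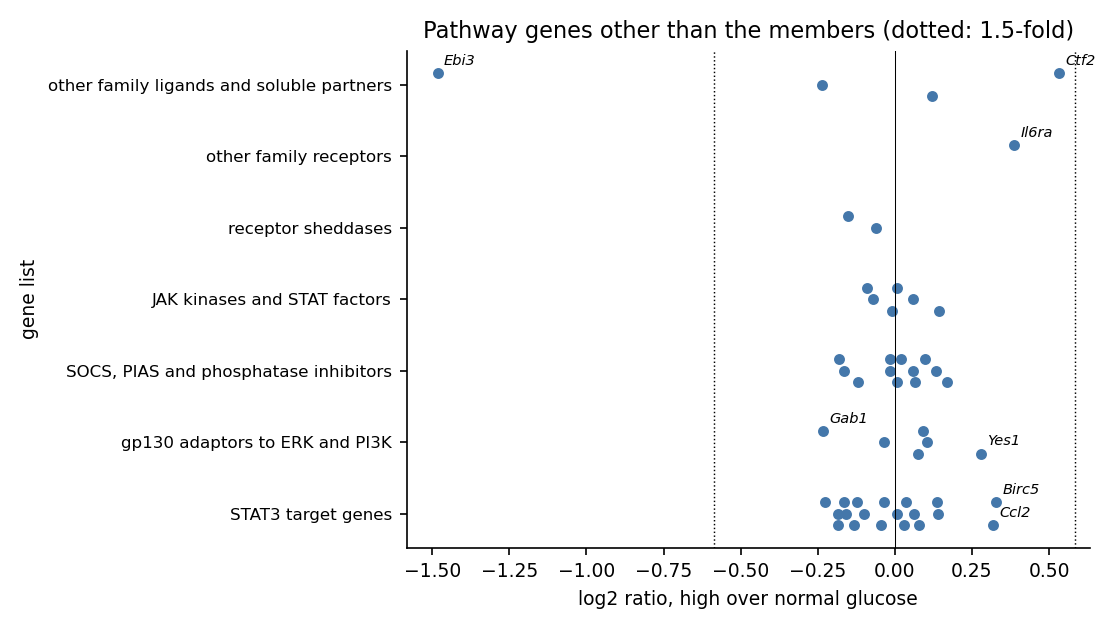
Log2 ratio of high over normal glucose of the 49 measured pathway genes other than the members, 1 point per gene and 1 row per gene list, 1 array per condition; vertical offsets only separate points, and Stat3 is drawn in both lists that hold it. Ebi3 at -1.48 lies beyond the dotted 1.5-fold line on the lower side, and no gene plotted lies beyond the line on the higher side.

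The labelled cell type was checked against its markers. Of 10 pericyte markers 9 were measured, from 93.9 for Rgs5 to 61844 for Cd248 in normal glucose, and Kcnj8 was below that level on both arrays. All 5 smooth muscle and all 5 fibroblast markers were measured too, so the markers do not separate these cells. Of 6 endothelial markers Cdh5, Tek and Emcn were not well above background, while Kdr read 7379. Of 7 leukocyte markers with a probe 6 were measured, among them Csf1r at 4682 and Ptprc at 39.1. By their brightest probes, all 6 measured leukocyte markers were higher in high glucose, with a median log2 ratio of 0.12. With median centring that median was 0.06, and 5 of 6 were higher. Median pixels gave negative ratios for Ptprc (-0.20), Cd3e (-0.04) and Adgre1 (-0.0034). They gave positive ratios for Csf1r (0.08), Itgam (0.07) and Lyz2 (0.23). Dimmer probes of Itgam gave -0.22 and -0.49, those of Csf1r -0.13 and 0.03, and that of Adgre1 0.13. The summed signal of the leukocyte markers, most of it from Itgam, was 29656 in normal and 30543 in high glucose, a scaled log2 ratio of 0.12. For the endothelial markers, with the brightest Kdr probe as nearly the whole sum, it was 7536 and 7209, a scaled log2 ratio of 0.02. A second Kdr probe, over 10 spots, read 1374 in normal and 1079 in high glucose, a log2 ratio of -0.27. Vwf was dim, at 74 in normal and 49 in high glucose, with a log2 ratio of -0.53, and -0.42 from median pixels. Pecam1 was dim too, at 85 in normal and 90 in high glucose. Its log2 ratio was 0.12, less than the SD over its 2 spots, and 0.17 from median pixels. By their brightest probes, 2 of the 3 measured endothelial markers were higher and 1 lower, with a median log2 ratio of 0.02. Both measured epithelial markers of 4, Krt14 and Krt5, were dim and higher, with a median of 0.32, while Epcam and Cdh1 did not pass the background flag. The 3 measured Schwann markers of 4 were lower, with a median of -0.06. Among the pericyte markers Rgs5 was at 0.58, about the size of the Socs3 ratio, Abcc9 at -0.45 and the median at -0.10. Rgs5 was dim, however, at 93.9 in normal and 133 in high glucose, and median pixels gave 0.41. The 6 dim spots around it were brighter by a median of 15.5 units, against a difference of 25 units at its own spot. The part of the cell type markers in the Il11 and Socs3 values was not tested. In pooled RNA, a different share of producing cells and a different amount of RNA per cell cannot be told apart.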

How the data were processed

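The deposited intensity values were extracted with Feature Extraction 11.5.1.1, per the file headers; per the submitters' processing notes the version was 9.3.2.1. The processed signal is a linear, background-subtracted intensity, not scaled between arrays, per the file headers. The series' value table, as deposited, repeats this intensity, equal within a relative tolerance of 0.0001 on probes with 1 spot, with column medians of 49.6 and 48.9. Of 59305 gene spots per array, 315 with an outlier flag were left out, as were 3671 control spots, and none was saturated. On the normal glucose array 56.3% of gene spots were well above background, and on the high glucose array 57.6%. The number of arrays limits the precision.

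Spots of 1 probe were averaged as log2 values and each array's 75th percentile was subtracted, 774 and 732 (normal and high). Probes were named by RefSeq accession without version (GRCm38.p6 gene table; the array design is on mm9): 27502 matched 1 symbol, 28161 none and 0 several. Array coordinates were not used. A gene was represented by its brightest probe well above background on both arrays, that is, in at least 0.5 of its spots. With 1 array per condition no test was run. Counting was tested on simulated data. Python 3.11.15, R 4.3.3 and limma 3.58.1 (normexp) were used. The members and lists were chosen with earlier results of these data known; 2 listed genes are not reported here. All members are named, and of each pathway list the genes past 1.5-fold or else the 2 largest; others are marked as named after their values were seen. The spot surroundings and the motifs were chosen after the data were seen.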

Additional observations from a re-analysis of the deposited data

How the results depend on the processing

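The count of 1 member past 2-fold, Il11, was the same in all 10 alternatives. Its single spot is well above background on both arrays, so the choices of detection filter and probe summary could not change its value. The count of 2 members past 1.5-fold became 1, without Socs3, with median centring and with normexp on median pixels (offset 50), an alternative chosen after seeing the data because the mean signal planned for it is not in the columns used here. The median log2 ratio of the members, 0.0033, became -0.0579 with median centring. That of all measured genes moved alike, from -0.0069 to -0.068. The 1 pathway gene past 1.5-fold, Ebi3, became 2 with no filter on dim probes. The 128 named genes past 2-fold became 38 with normexp, 560 with the positive and significant flag and 1270 with no filter on dim probes. Causes were not tested, except that the looser filters admit more genes. Il6, Lif, Il11ra1 and Osmr changed sign between settings and the other 6 members did not. No library could be left out with 1 array per condition. No paired analysis was possible because each group has 1 array. Depth of signal limits Il6, Lif and the 2 dimmer Lifr probes.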
